A study of Mus musculus with 6 samples.

Results

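Sox genes encode transcription factors that bind DNA through a conserved HMG box, and 10 of them that are used in neural cells are described here, out of 55416 genes counted. They fall into 4 subgroups by sequence: SoxB (Sox2 and Sox21), SoxC (Sox4, Sox11 and Sox12), SoxD (Sox5 and Sox6) and SoxE (Sox8, Sox9 and Sox10). The genes were selected on their counts in these 6 libraries, which were known when the list was drawn up, so their levels and the differences between groups are a description. Sox2 keeps neural progenitors undifferentiated, while Sox21 acts mainly as a repressor and opposes it. Sox4, Sox11 and Sox12 are active in cells becoming neurons. Sox9 is needed for the start of gliogenesis, Sox10 drives oligodendrocyte differentiation, Sox8 overlaps with both, and Sox5 and Sox6 restrain SoxE activity in precursors.

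Each library was made from oligodendrocyte precursor cells, the progenitors of myelin-forming cells, taken from the cortices of 4 to 6 pooled mice at postnatal day 11. The 3 cKO samples came from Pdgfra-Cre:Ift88 fl/fl; RosaEYFP mice and the 3 control samples from Pdgfra-Cre:Ift88 fl/wt; RosaEYFP mice. Both groups thus carried Cre, the reporter and at least 1 floxed copy of Ift88, a gene needed to build the primary cilium. Cre is made where the Pdgfra promoter is active, which in brain includes precursors and some cells of the meninges and vessels. Each replicate is a pool, and a p-value here therefore reflects how pools vary, not single animals.

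Libraries were primed at the 3' end of RNA, so a transcript gives a tag whatever its length. Levels in counts scaled to a common library total (CPM) therefore need no correction for length between genes. Other differences in how well a gene is tagged and counted remain, so orders and shares between genes are approximate. Total counts were 11773548 to 13909236 in 5 libraries and 568509 in cKO replicate 2, in which 3651 genes had a count against at least 14047 elsewhere. The upper mode, the most common level among genes with at least 20 counts, was 266 to 473 counts in the 6 libraries. Where no read was counted, the level could still be as high as 0.216 to 0.255 CPM in the 5 deeper libraries, and 5.28 CPM in cKO replicate 2. This limit covers counting error only, as PCR copies are not independent molecules. Ift88 itself had 1, 0 and 305 counts in cKO and 143, 32 and 167 in control libraries, and a 3' tag outside the floxed part does not check the genotype. Of 15 markers of oligodendrocyte precursors, 5 were at 0 throughout the deeper libraries, Sox10, Tnr and Pcdh15 included. Only 4 of the 15 had at least 20 counts in every deeper library, and Olig1 and Olig2 were counted only in cKO replicate 3. The labelled cell type is thus only partly seen in its markers.

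The 250 bases before the RefSeq start are shown for Sox2 and Sox21, whose CPM lay below the control range in the deeper cKO libraries. They are also shown for Sox11 and Sox12, whose CPM lay above it. Sox8 lay above it too, at no more than 9.35 CPM, and its window is not shown. Windows were found for 8 of the 10 genes, all but Sox9 and Sox10, and are given 5′ to 3′ on the strand of the gene in GRCm38.p6. Capitals mark every match to the motifs searched. The windows shown are chr3:34649745-34649994 on the plus strand for Sox2, chr14:118237031-118237280 on the minus strand for Sox21, chr12:27342719-27342968 on the minus strand for Sox11 and chr2:152398047-152398296 on the minus strand for Sox12.
Sox2: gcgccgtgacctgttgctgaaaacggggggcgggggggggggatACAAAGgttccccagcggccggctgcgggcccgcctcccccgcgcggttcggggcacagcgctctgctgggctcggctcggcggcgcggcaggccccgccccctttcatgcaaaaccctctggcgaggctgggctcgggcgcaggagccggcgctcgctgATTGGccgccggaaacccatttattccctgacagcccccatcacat
Sox21: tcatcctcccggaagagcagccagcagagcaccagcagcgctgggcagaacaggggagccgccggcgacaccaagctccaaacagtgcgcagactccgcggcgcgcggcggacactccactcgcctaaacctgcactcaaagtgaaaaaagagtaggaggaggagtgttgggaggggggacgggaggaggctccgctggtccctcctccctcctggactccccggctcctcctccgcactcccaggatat
Sox11: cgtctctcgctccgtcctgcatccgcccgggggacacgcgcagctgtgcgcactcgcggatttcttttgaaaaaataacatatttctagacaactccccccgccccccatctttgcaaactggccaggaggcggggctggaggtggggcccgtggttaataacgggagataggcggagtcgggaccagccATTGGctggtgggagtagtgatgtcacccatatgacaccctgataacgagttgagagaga
Sox12: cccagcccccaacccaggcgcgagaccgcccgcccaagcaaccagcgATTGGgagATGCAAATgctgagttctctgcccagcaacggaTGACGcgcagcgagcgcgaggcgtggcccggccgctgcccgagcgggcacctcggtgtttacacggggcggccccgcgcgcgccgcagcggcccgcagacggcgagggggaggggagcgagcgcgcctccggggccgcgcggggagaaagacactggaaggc

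Both strands were searched for ACAATG and ACAAAG, which are forms of the SOX site, for CCAAT, for TATAAA, for the cAMP response element TGACGTCA and its core TGACG, for the GLI site GACCACCCA and for the octamer ATGCAAAT bound by POU factors. The core TGACG lies inside the full element. Sox2 held ACAAAG, found in 16.5% of all 32851 RefSeq windows of this length, and CCAAT on the reverse strand, found in 33.8%. Sox21 held none of these motifs. Sox11 held CCAAT on the reverse strand, and Sox12 held the same motif together with TGACG (17.8% of windows) and the octamer (1.6% of windows). The share of G and C was 72% in the Sox2 window, 65.2% for Sox21, 58% for Sox11 and 74.4% for Sox12, against a median of 52.4%. A match is a description of the letters and shows no bound factor.

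The members that stood apart were both listed SoxB genes and single genes of SoxC and SoxE. In cKO replicates 1 and 3 Sox2 and Sox21 were lower and Sox11 higher than in the controls, whether scaled by totals, TMM or the upper mode. Sox21 was nearly at 0 there. Sox8, at far lower counts than Sox11, was also higher on each of these scales. No member passed the quasi-likelihood test of edgeR, adjusted over all genes by Benjamini-Hochberg, with all 6 libraries or without cKO replicate 2. The filter on low counts kept 9 members, all but Sox10, and Sox21 was kept through its control libraries. In all, 2 of 12833 genes passed with 6 libraries, or 0.0156%, and 1 of 14562 without cKO replicate 2, or 0.00687%. At an unadjusted p under 0.05 edgeR had 1 member, Sox21, with 6 libraries and 3 without cKO replicate 2, Sox21, Sox11 and Sox2. Over all genes tested the same threshold took 363 of 12833, or 2.83%, with 6 libraries and 887 of 14562, or 6.09%, without cKO replicate 2. The outcome depended on the tool: DESeq2 without cKO replicate 2 called Sox21, Sox11 and Sox2, among 298 of 14562 genes or 2.05%. With all libraries and no filter DESeq2 called Sox21, among 130 of 20339 genes or 0.639%.

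**Figure D1:**
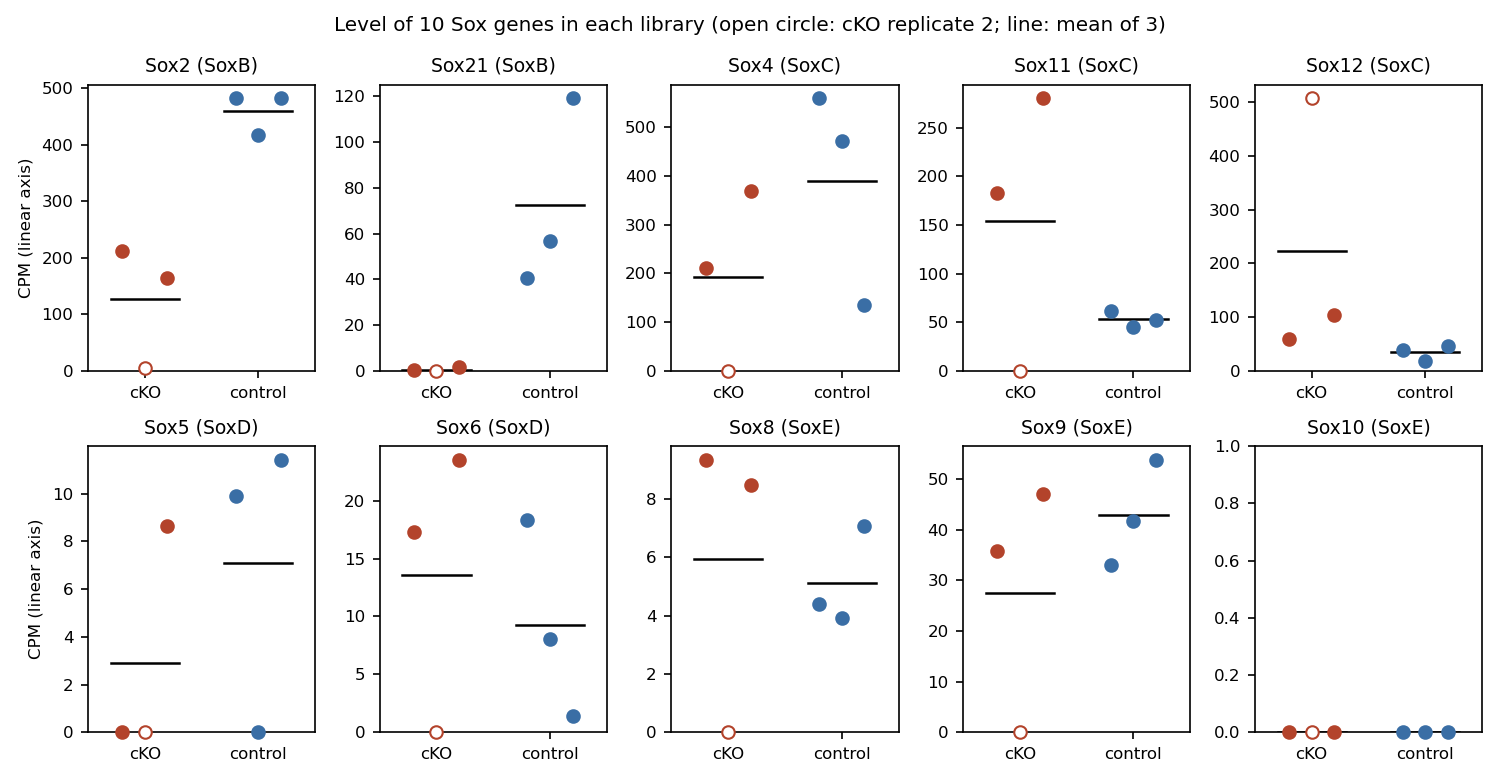
Level of each gene in CPM (linear axis from 0), a point per library, with cKO to the left of control, an open circle for cKO replicate 2 and a line at the mean of 3. Sox21 lay between 0 and 1.61 CPM in the cKO libraries and between 40.7 and 119 CPM in the control libraries, and Sox12 was highest in cKO replicate 2.

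Sox21 had the largest fold change of the 9 genes tested, with all 6 libraries and without cKO replicate 2. With upper-quartile scaling Sox12 was further from 0 (log2 7.48 against -6.34 for Sox21), as was Sox5 without cKO replicate 3 (-9.24 against -8.51). Its counts were 3, 0 and 19 in cKO libraries and 556, 726 and 1617 in control libraries, or 0.216, 0 and 1.61 CPM against 40.7, 56.9 and 119 CPM. All 3 cKO values lay below all 3 control values, as they did for 11.1% of the 12833 genes tested. Pooled over the deeper libraries of each group, control over cKO was 84.7-fold with a 95% counting interval of 55.8 to 135, which treats reads as independent. The fitted log2 fold change was -6.57 (SE 2.22, edgeR adjusted p = 0.866) with all libraries and -6.29 (SE 1.1, edgeR adjusted p = 0.493) without cKO replicate 2. DESeq2 gave no adjusted p for Sox21 in the same 12833 genes, and 0.00253 when no filter was applied. Across the alternatives the lowest adjusted p for Sox21 was 6.36e-08 and the highest 1.

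Sox21 lies in a single exon on chromosome 14 at 118470644 to 118474442 on the minus strand (GRCm39, as are all gene positions here). Of its exon bases 18.8% are shared with Gm4675 on the other strand, for which no library held a read, and the last 500 bases share 0%. Ift88 lies on the same chromosome, 60.7 Mb away. Whether this linkage plays a part in the Sox21 values was not tested.

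Sox2 was lower in cKO libraries, and its control values were even. It had 2954, 3 and 1924 counts in cKO and 6585, 5313 and 6533 in control libraries, or 212, 5.28 and 163 CPM against 482, 416 and 481 CPM. The groups did not overlap here either. The mean was 127 ± 108 CPM in cKO and 460 ± 37.8 CPM in control samples (SD, n = 3 each), and 188 CPM in cKO replicates 1 and 3. Its log2 fold change was -1.84 (SE 1.18, edgeR adjusted p = 1) and, without cKO replicate 2, -1.27 (SE 0.284, edgeR adjusted p = 0.689). Sox2 is a single exon gene on chromosome 3 at 34704554 to 34706610 and shares no exon base with another annotated gene.

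Sox21 also stood apart from Sox2 within libraries, where scaling plays no part. The count of Sox21 over that of Sox2 was 0.00102 and 0.00988 in cKO replicates 1 and 3, against 0.0844, 0.137 and 0.248 in control libraries. In the 5 deeper libraries the log2 fold change relative to the median of all genes tested was -6.24 for Sox21 and -1.22 for Sox2.

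Among the SoxC genes, Sox11 was higher in both deeper cKO libraries. It had 2540, 0 and 3301 counts in cKO and 843, 581 and 705 in control libraries, or 183, 0 and 280 CPM against 61.7, 45.5 and 52 CPM. Replicates 1 and 3 of the cKO group lay above every control, whose spread was small (53.1 ± 8.16 CPM, SD, n = 3), and cKO replicate 2 lay below. The cKO mean was 154 ± 142 CPM (SD, n = 3), or 231 CPM in replicates 1 and 3, which is 4.36-fold the control mean. Its log2 fold change was 1.54 (SE 1.7, edgeR adjusted p = 1) with all libraries and 2.13 (SE 0.349, edgeR adjusted p = 0.444) without cKO replicate 2. Sox11 is a single exon gene on chromosome 12 at 27384263 to 27392573, with no exon base shared.

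Sox4, the close relative of Sox11, did not share its pattern. It had 2936, 0 and 4345 counts in cKO and 7645, 6031 and 1842 in control libraries, or 211, 0 and 369 CPM against 560, 473 and 136 CPM. The deeper libraries of the groups overlap, and control replicate 3 was the lowest of these 5. The log2 fold change was -1.03 (SE 1.16, edgeR adjusted p = 1), and -0.45 (SE 0.595, edgeR adjusted p = 1) without cKO replicate 2. Sox11 over Sox4 was 0.865 and 0.76 in cKO replicates 1 and 3, against 0.11, 0.0963 and 0.383 in control libraries.

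Sox12 was the only member detected beyond a few counts in cKO replicate 2, where 289 counts came to 508 CPM. It had 828, 289 and 1220 counts in cKO and 535, 236 and 617 in control libraries, or 59.5, 508 and 103.6 CPM against 39.2, 18.5 and 45.5 CPM. All cKO values lay above all control values on this scale, as they did for 1.33% of the genes tested. A gene without a count in cKO replicate 2 could not do so, and only 3651 genes had a count there. Without cKO replicate 2, 13% of genes tested lay above the controls. With the upper mode as the scale in place of the total, the values of the 5 deeper libraries overlapped. The 289 counts of cKO replicate 2 lay below its upper mode of 376 counts, as did the 236 of control replicate 2 (266). The 535 and 617 counts of control replicates 1 and 3 lay above theirs (266 and 473). The log2 fold change was 2.65 (SE 1.7, edgeR adjusted p = 1), and 1.26 (SE 0.541, edgeR adjusted p = 0.767) without cKO replicate 2.

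**Figure D2:**
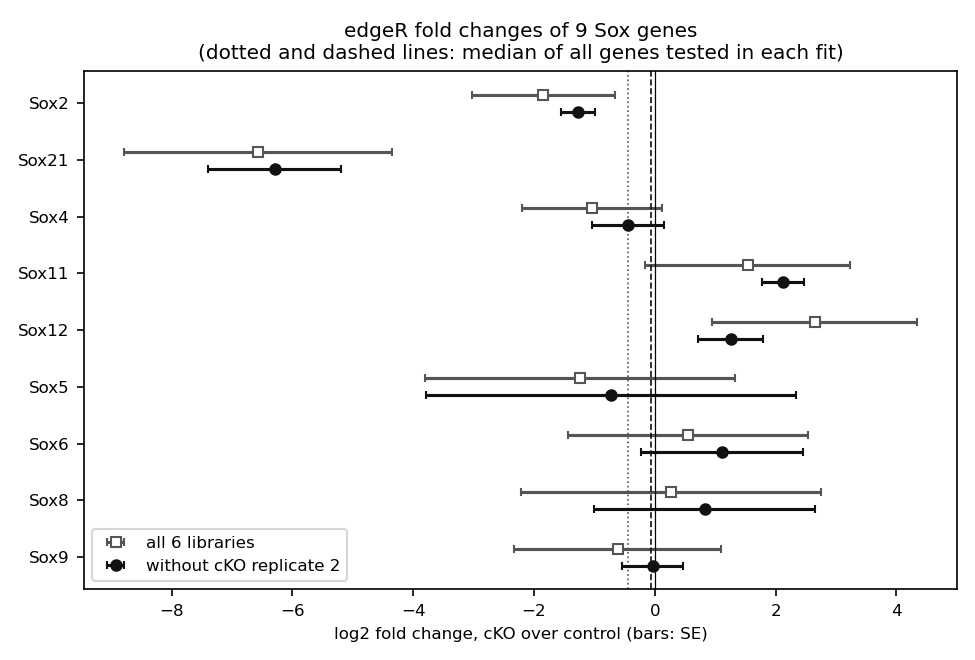
Fitted log2 fold change of cKO over control for 9 genes (x axis, bars are SE), with open squares for all 6 libraries and filled circles without cKO replicate 2; dotted and dashed lines give the median of all genes tested in each fit. Sox21 sits at -6.57 and -6.29, Sox2 below 0 and Sox11 and Sox12 above 0 in both fits.

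The median log2 fold change of all genes tested was -0.44 with 6 libraries and -0.06 without cKO replicate 2, and it ran from -0.90 to -0.01 over the other scalings of the 6 libraries. Relative to that median, Sox11 was 1.98 higher with 6 libraries and 2.18 higher without cKO replicate 2. Relative to the same medians, Sox12 was 3.09 and 1.31 higher. On the same basis Sox2 was at -1.40 and Sox4 at -0.59 with 6 libraries.

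The SoxD genes were low. Sox6 had 240, 0 and 277 counts in cKO and 250, 103 and 19 in control libraries, or 17.3, 0 and 23.5 CPM against 18.3, 8.07 and 1.4 CPM. Sox5 had 0, 0 and 102 counts in cKO and 135, 0 and 155 in control libraries, or at most 11.4 CPM. Values of the groups overlap for both genes, and every count of Sox5 and Sox6 lay below the upper mode of its own library. Their log2 fold changes were 0.55 (SE 1.99) for Sox6 and -1.24 (SE 2.56) for Sox5, with edgeR adjusted p = 1 for each. The Sox5 value rested on cKO replicate 3, the only cKO library with a count, and was -9.24 without it.

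The SoxE genes differed widely in level. Sox9 was similar in the deeper libraries, with 498, 0 and 553 counts in cKO and 452, 531 and 730 in control libraries, or 35.8, 0 and 47 CPM against 33.1, 41.6 and 53.8 CPM. Its log2 fold change was -0.61 (SE 1.72, edgeR adjusted p = 1) with all libraries and -0.03 (SE 0.505, edgeR adjusted p = 1) without cKO replicate 2. Sox8 had 130, 0 and 100 counts in cKO and 60, 50 and 96 in control libraries, or 9.35, 0 and 8.49 CPM against 4.39, 3.92 and 7.08 CPM. The deeper cKO libraries lay above the controls for Sox8, but its fold change is poorly fixed (log2 0.83, SE 1.83, edgeR adjusted p = 1, without cKO replicate 2). Sox10 had 0 counts in all 6 libraries, and its exons share no base with another annotated gene.

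In the 5 deeper libraries, 3 members lay above all controls in both cKO libraries (Sox11, Sox12 and Sox8) and 2 lay below (Sox2 and Sox21), while 5 overlapped. Among all 14562 genes tested without cKO replicate 2, 13% lay above and 12.6% below, or 25.5% in all. Since the genes were chosen with these values known, nothing is read from the count. In cKO replicate 2 itself, 2 of the 10 genes had a count. With every library thinned to 568509 counts, Sox2 still had 117 and 83 counts in cKO replicates 1 and 3 and 284, 221 and 294 in control libraries, against 3 in cKO replicate 2. Sox11 kept 106 and 180 counts in cKO replicates 1 and 3 and 34, 23 and 30 in control libraries, against 0 in cKO replicate 2. For these 2 genes no other library was as low at this total. The same held for Sox4, with 123 and 198 counts in cKO replicates 1 and 3 and 317, 247 and 59 in control libraries, against 0. Sox9 and Sox8 were also at 0 only in cKO replicate 2, though Sox8 had as little as 1 count in control replicate 2. For some genes a count of 0 was also seen elsewhere after thinning. Sox21 had 0 in cKO replicate 1, Sox5 in cKO replicate 1 and control replicate 2, Sox6 in control replicate 3, and Sox10 in every library. The thinning was 1 random draw of reads, which matches total counts but not the number of separate molecules in a library. Why cKO replicate 2 was lower was not tested.

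Summed by subgroup, SoxB had 213, 5.28 and 165 CPM in cKO and 523, 473 and 601 CPM in control libraries, without overlap. SoxC had 453, 508 and 753 CPM in cKO and 661, 537 and 233 CPM in control libraries, with overlap. SoxD summed to at most 32.2 CPM and SoxE to at most 60.9 CPM in any library, and the groups overlapped in both. SoxC made up 62.2% of the counts of the 10 genes in cKO replicate 1 (exact 95% interval 61.3 to 63.2) and 74.9% in cKO replicate 3 (74.1 to 75.7). In control libraries SoxC made up 52.9% (52.1 to 53.6), 50.5% (49.6 to 51.3) and 25.7% (24.9 to 26.5). In cKO replicate 2 it was 99% of 292 counts, nearly all of them Sox12. These intervals cover counting error only, and the control values alone spread further than they do.

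**Figure D3:**
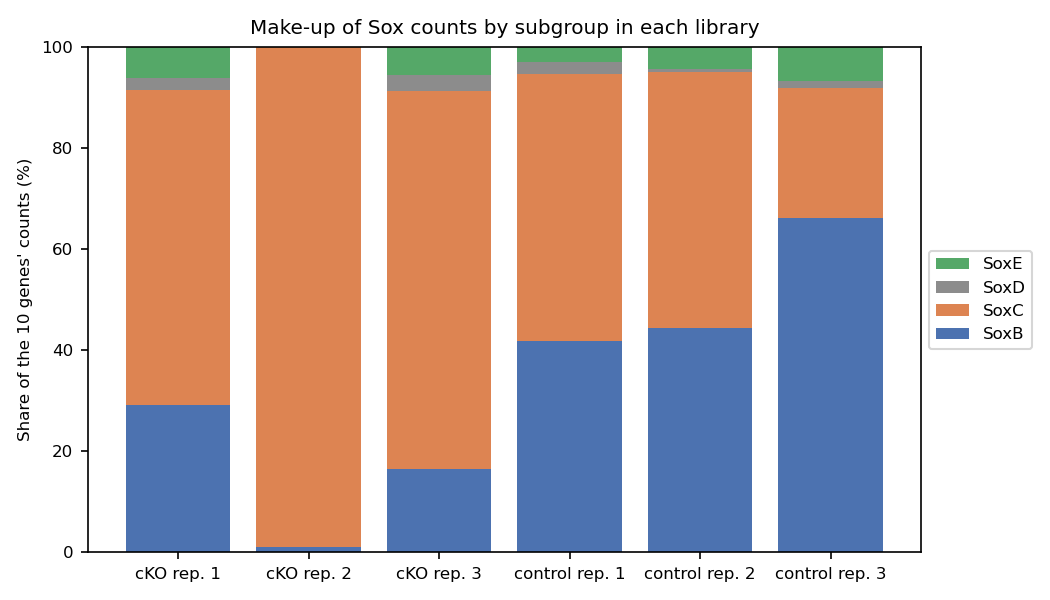
Share of the counts of the 10 genes held by each subgroup (y axis, percent), a stacked bar per library with the 3 cKO libraries on the left. SoxB made up 29.2% and 16.4% in cKO replicates 1 and 3, against 41.9% to 66.2% in control libraries.

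The ratio of SoxC to SoxB counts was 2.13 and 4.56 in cKO replicates 1 and 3, and 1.26, 1.13 and 0.388 in control libraries. Sox11 over Sox2 was 0.86 and 1.72 in these cKO libraries, and 0.128, 0.109 and 0.108 in control libraries. The 3 control values of this ratio were nearly equal, although SoxC over SoxB differed between the same libraries. These ratios were chosen after the values were seen and carry no test.

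**Figure D4:**
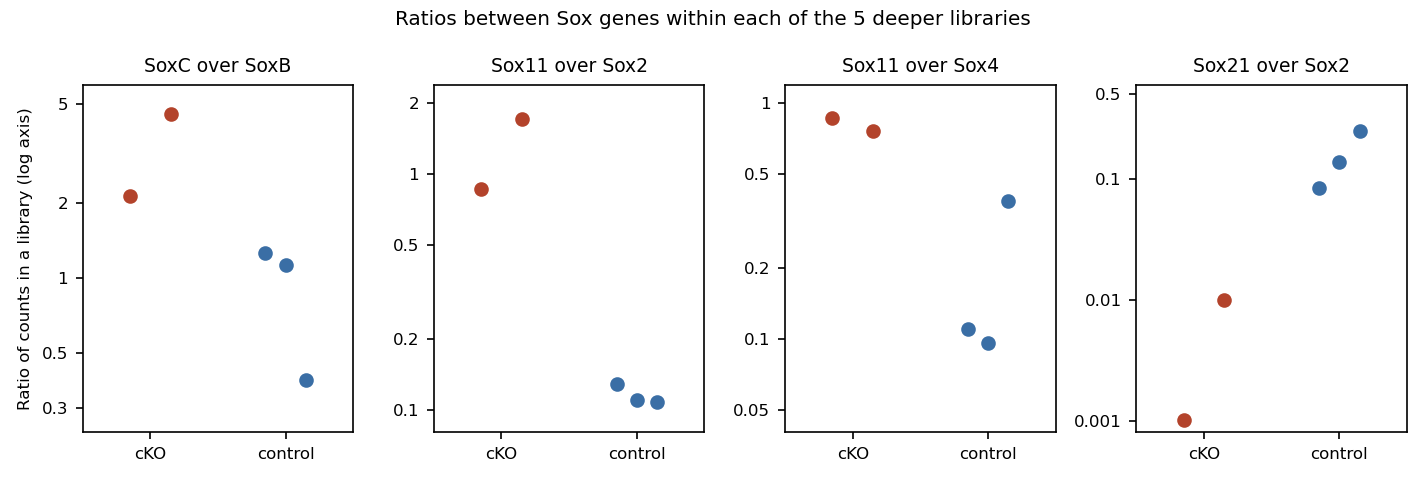
Ratio of counts within a library (log axes) for 4 pairs of genes or subgroups, a point per library, cKO replicates 1 and 3 to the left of the 3 control libraries. Sox11 over Sox2 was 0.86 and 1.72 in cKO and 0.108 to 0.128 in control libraries, and Sox21 over Sox2 was below 0.01 in both cKO libraries.

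The order of levels also differed. In control samples Sox2 (460 ± 37.8 CPM) and Sox4 (390 ± 224 CPM) came first and did not differ beyond their spread (SD, n = 3). They were followed by Sox21 (72.3 ± 41.4 CPM), Sox11 (53.1 ± 8.16 CPM), Sox9 (42.8 ± 10.4 CPM) and Sox12 (34.4 ± 14.1 CPM), whose neighbours overlap. Sox6 (9.26 ± 8.52 CPM), Sox5 (7.1 ± 6.2 CPM) and Sox8 (5.13 ± 1.7 CPM) were lowest of those detected, and overlap too. In cKO replicates 1 and 3 the mean order was Sox4 (290 CPM), Sox11 (231 CPM), Sox2 (188 CPM), Sox12 (81.6 CPM), Sox9 (41.4 CPM), Sox6 (20.4 CPM), Sox8 (8.92 CPM) and Sox5 (4.33 CPM), with Sox21 last of those detected (0.915 CPM). The first 3 places differed between these libraries: cKO replicate 1 had Sox2 (212 CPM), Sox4 (211 CPM) and Sox11 (183 CPM), and cKO replicate 3 had Sox4 (369 CPM), Sox11 (280 CPM) and Sox2 (163 CPM).

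Of the 10 other Sox genes in the mouse, 6 had no count in any library: Sry, Sox7, Sox14, Sox17, Sox18 and Sox30. Sox3, a SoxB gene of neural progenitors, had 411, 0 and 347 counts in cKO and 160, 276 and 154 in control libraries, so it did not follow Sox2, although its values overlapped after division by the upper mode. Sox1, also of SoxB, had 0, 0 and 33 counts in cKO and 184, 99 and 7 in control libraries. Sox13 of SoxD had 0, 0 and 165 counts against 182, 59 and 0 in control libraries, and Sox15 had 0 in all cKO libraries against 63, 103 and 0.

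Genes that work with SoxC or are reported targets of it in neurons were followed beside it. Of 12 such genes 11 were tested with all libraries and 0 passed edgeR's test (0 at an unadjusted p under 0.05). Their median log2 fold change was 0.07 against -0.44 over all genes, and 0.44 against -0.06 without cKO replicate 2. Dcx, a microtubule protein of migrating neurons, had 686, 8.79 and 621 CPM in cKO and 198, 148 and 40.4 CPM in control libraries (edgeR adjusted p = 1, and 0.767 without cKO replicate 2). Neurod1, a neuronal transcription factor, had 15.3, 1.76 and 29 CPM against 38.4, 179 and 6.41 CPM in control libraries. Dcx was thus high in the cKO libraries in which Sox11 was high. The 16 neuron markers as a whole summed to 7388, 2172 and 7446 CPM in cKO and 6798, 5582 and 1863 CPM in control libraries. Control replicate 3, the library with the least Sox4 of the deeper ones, was also lowest in this sum. In the deeper libraries 3 of these markers (Dcx, Snap25 and Nefl) were higher and 2 (Gad1 and Gad2) lower without overlap. Among all genes tested there, 13% were higher and 12.6% lower. The part of neuronal RNA in the SoxC values was not tested, and more neurons cannot be told from more RNA per neuron in such bulk samples.

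Of 14 progenitor genes and partners of SoxB, 0 passed edgeR's test (1 at an unadjusted p under 0.05, against 2.83% of all genes). Their median log2 fold change was -0.83 against -0.44 over all genes, and -0.29 against -0.06 without cKO replicate 2. Vim, an intermediate filament of progenitors and glia, had 1769, 186 and 2149 CPM in cKO and 1895, 5947 and 4493 CPM in control libraries (log2 fold change -1.59, SE 0.437, edgeR adjusted p = 0.349). Without cKO replicate 2 its adjusted p was 0.767 by the same edgeR test.

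Partners and targets of SoxE were sparse: 7 of 18 oligodendroglial genes were at 0 throughout the deeper libraries, and 0 of 8 tested passed edgeR's test (0 at an unadjusted p under 0.05). Nkx6-2, a factor of maturing oligodendrocytes, had 0, 0 and 2.21 CPM in cKO and 0, 13.7 and 2.65 CPM in control libraries. Of 12 genes linked to Sox9 in gliogenesis, 0 of 10 tested passed edgeR's test (1 at an unadjusted p under 0.05, against 2.83% of all genes). Their median log2 fold change was -0.29 against -0.44 over all genes, and -0.58 against -0.06 without cKO replicate 2. Aldh1l1, an astrocyte enzyme, was at 0 in all cKO libraries and at 17.9, 7.29 and 8.03 CPM in control libraries. Gfap, the astrocyte filament, had 44.5, 0 and 19.5 CPM in cKO and 134, 281 and 243 CPM in control libraries, beside the overlapping Sox9 values.

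SoxD-linked genes of cortical neurons and interneurons were mostly missing. Of 11 genes 4 had no count in the deeper libraries, and 0 of 2 tested passed edgeR's test (1 at an unadjusted p under 0.05, against 2.83% of all genes). Sst, a neuropeptide of interneurons that depend on Sox6, had 82, 5.28 and 68.5 CPM in cKO and 253, 957 and 36.2 CPM in control libraries, and Bcl11b, a factor of deep-layer neurons, 4.89, 0 and 14.9 CPM against 10.8, 3.06 and 0 CPM.

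Marker sums of other cell types are given beside these values. The 14 astrocyte and radial glia markers, which include Sox9, summed to 1069.6, 684 and 931 CPM in cKO and 1126, 1616 and 891 CPM in control libraries, and 6 of them were lower and 2 higher without overlap in the deeper libraries, where 12.6% of all genes were lower and 13% higher. The 15 precursor markers, which include Sox10, summed to 267, 7.04 and 322 CPM in cKO and 525, 828 and 278 CPM in control libraries. Of these 15, Pdgfra, Cspg4 and Vcan were higher without overlap in the deeper libraries (Vcan overlapped after division by the upper mode) and C1ql1 was lower. The median log2 fold change was -0.31 for the 6 tested with all libraries, against -0.44 over all genes. Without cKO replicate 2 it was 0.76 for 8 tested, against -0.06 over all genes. Lhfpl3 and Xylt1, tested only without cKO replicate 2, were counted only in cKO replicate 3 and control replicate 2. Microglia and endothelial markers had no count in the deeper libraries for 6 of 10 genes each, and summed there to 23.5 to 77.9 CPM and to 2.12 to 84.3 CPM. The 10 choroid plexus and ependymal markers summed to 590.5, 48057 and 894 CPM in cKO and 379, 191 and 130 CPM in control libraries. Most of each cKO sum was Ttr, the transthyretin of choroid plexus, with 376, 45945 and 574 CPM in cKO and 25.1, 7.37 and 0.147 CPM in control libraries. Without Ttr the other 9 summed to 215, 2113 and 320 CPM in cKO and 354, 184 and 130 CPM in control libraries, and the deeper libraries overlapped. The part of these cell types in the Sox values was not tested.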

How the data were processed

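The authors deposited raw counts of reads for each gene, made with featureCounts 2.0.0 on exons of Ensembl 104 (GRCm39), with no strand or multi-mapping option, per the file headers. Libraries were QuantSeq 3' FWD, per the labels' protocols. The submitters' processing notes list STAR, FastQC and DESeq2 and do not say for what. Of 55416 identifiers, 52083 could be given a symbol from a reference table. Genes kept by filterByExpr were scaled by TMM and tested with edgeR 4.0.16 (glmQLFit, robust, and glmQLFTest, two-sided, R 4.3.3), 3 cKO against 3 control samples. The threshold was a Benjamini-Hochberg adjusted p of 0.05 over all genes, and SE is the log2 fold change over the root of F. CPM used total counts. The upper mode is the peak of a smoothed histogram of log10 counts of at least 20. DESeq2 1.42.0, limma-voom (limma 3.58.1), other scalings and filters, a replicate block and leaving out each library were alternatives. DESeq2 with no filter and DESeq2 without cKO replicate 2 were added after the data were seen. The edgeR step was tested on simulated data. Figures used matplotlib 3.10.9.

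The 10 genes and all gene lists were chosen with earlier results of these data known. Named were the members, other Sox genes with at least 20 counts in a library, the other 6 by name, genes sharing exon bases with a member, Ift88, and in each partner list the 2 genes with the smallest p, of which some are not reported here. The genes that share exon bases with Sox5 and Sox8 are Sox5os1 and 2810468N07Rik, each with 0 counts in all libraries and none of the last 500 bases.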

Additional observations from a re-analysis of the deposited data

How the results depend on the processing

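With all 6 libraries 2 genes passed among all genes; this became 16 with RLE scaling, 0 with upper-quartile scaling (1152 at an unadjusted p under 0.05), 1 with the upper mode, 5 with DESeq2, 8 with limma-voom, 23 without a filter and 1 to 7 when a library was left out. Chosen after the data were seen, DESeq2 with no filter called 130 genes and DESeq2 without cKO replicate 2 called 298 of 14562 (2.05%). Of the Sox genes, DESeq2 with no filter called 1, Sox21. DESeq2 without cKO replicate 2 called 3: Sox21 (log2 fold change -6.31, adjusted p = 6.36e-08), Sox11 (2.14, 0.000133) and Sox2 (-1.25, 0.00577). The other alternatives called 0. In DESeq2 on the 12833 filtered genes, Sox21, Sox5, Sox6, Sox8 and Sox9 got no adjusted p and so could not be called. Over all alternatives adjusted p ran up to 1 for each of Sox21, Sox11 and Sox2. The signs of their fitted log2 fold changes, and of those of Sox12, Sox4, Sox5 and Sox9, held under each alternative. Values ran from -8.51 to -6.09 for Sox21, 0.21 to 2.14 for Sox11 and -2.64 to -1.25 for Sox2. The values were 0.60 to 7.48 for Sox12, -2.12 to -0.43 for Sox4, -9.24 to -0.64 for Sox5 and -1.41 to -0.0198 for Sox9. Sox6 went to -0.0196 without cKO replicate 3, with leave-one-out values of -0.0196 to 1.52. Sox8 went to -0.0223 with the upper mode, and its leave-one-out values were -0.22 to 0.83. Relative to the median of all genes tested, signs behaved otherwise. Sox5 ran from -8.34 to 0.18 and Sox9 from -0.39 to 0.02 over the alternatives, so both changed sign. On that basis Sox6 (0.41 to 1.92) and Sox8 (0.54 to 1.15) did not.

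Summed levels (log2 of mean cKO over mean control) were -2.06 for SoxB, 0.26 for SoxC, 0.01 for SoxD and -0.52 for SoxE. SoxB ran from -2.64 to -1.50 when a library was left out. SoxC turned to -0.65 with the upper mode and ran from -0.0674 to 0.57. SoxD turned to -0.37 with the upper mode and to -0.0023 on TMM sizes, and ran from -0.92 to 0.66. SoxE ran from -1.09 to 0.0685, the last without cKO replicate 2. The cause was not tested.

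The series design names no pairing, so the replicate numbers are not taken as pairs. Deviations of same-numbered libraries from their group means had correlations of 0.0791, 0.0511 and 0.0112 over genes. In this comparison 3 of 3 cKO and 2 of 3 control libraries correlated best with their own number. As cKO replicate 2 enters the mean of its group and so every cKO deviation, these values cannot show whether pairs exist. With the replicate block 1 gene and 0 members passed, and Sox8 turned to -0.43. In cKO replicate 2 a count of 0 allows up to 5.28 CPM, above the level of Sox8 in some libraries and of Sox21 in the other cKO libraries, so those are not detectable there.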

Other observations

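Some genes tied to glial Sox factors differed in opposite directions between the deeper libraries; they were chosen after their values were seen. Apcdd1, a Wnt inhibitor reported as a joint target of Sox9 and Nfia, had 344, 1.76 and 241 CPM in cKO and 49.6, 37.1 and 33.8 CPM in control libraries. Slc1a3, the glutamate transporter of astrocytes and radial glia, had 454, 682 and 294 CPM in cKO and 248, 224 and 66.3 CPM in control libraries, and its deeper libraries overlapped after division by the upper mode. Gfap and Aldh1l1, also astrocyte genes, were lower in all cKO libraries than in any control. Neither Apcdd1 nor Slc1a3 passed edgeR's test over all genes.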
